A study of Homo sapiens with 24 samples.

Results

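All reads of HEK293 cells that by their labels overexpress the RNA-binding protein ZC3H7B (ZC3H7B-OE) were compared with those of a control line. Both were taken after 2 h of a uridine chase. The comparison takes its 6 libraries, 3 of ZC3H7B-OE and 3 of control, from 24 in the series by line and chase time alone. HEK293 is an established human embryonic kidney line. The ZC3H7B-OE cells carried a Flag/HA-tagged ZC3H7B construct and the control cells a Flag/HA construct without ZC3H7B. A pulse of 24 h gave both lines 100 µM 4-thiouridine (s4U), a uridine analogue, and 1 µg/mL doxycycline. A medium change of 6 h is recorded alike for every library. The chase that followed a wash used 10 mM uridine. Every group thus carried s4U and doxycycline, and libraries of cells without doxycycline were not analysed here, so that standing differences between the lines and effects of ZC3H7B cannot be told apart. Whether each line is 1 clone or a pool is not given in the sources used here. The series samples both lines at 0, 2, 4 and 6 h of chase, with 3 libraries each, and concerns the action of ZC3H7A and ZC3H7B on translation and mRNA stability through codons.

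ZC3H7B and its paralog ZC3H7A are CCCH-type zinc finger proteins that bind RNA. Codon use is one of the known influences on mRNA stability: in human cells, synonymous codons ending in G or C and those ending in A or T accompany different mRNA half-lives. ATF4, a transcription factor made more efficiently when the integrated stress response is active, raises genes of amino acid uptake and synthesis through C/EBP-ATF elements, and serum response factor raises immediate early genes such as EGR1 through CArG boxes.

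Sequences below show the features by which genes are grouped further on. The first pair are promoter windows, 250 bases up to the base before the gene start, read from the RefSeq table of GRCh38.p14. CEBPG stands for the stress regulators of the ATF4 pathway and EGR1 for the immediate early genes, and capitals mark a C/EBP-ATF element (TGATGNAAN) in CEBPG and CArG boxes in EGR1.
CEBPG promoter, chr19:33373863-33374112, plus strand: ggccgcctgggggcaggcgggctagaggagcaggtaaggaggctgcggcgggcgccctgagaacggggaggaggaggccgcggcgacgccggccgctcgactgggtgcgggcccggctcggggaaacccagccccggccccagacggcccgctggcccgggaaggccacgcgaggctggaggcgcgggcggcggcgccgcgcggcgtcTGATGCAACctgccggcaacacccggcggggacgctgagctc
EGR1 promoter, chr5:138465229-138465478, plus strand: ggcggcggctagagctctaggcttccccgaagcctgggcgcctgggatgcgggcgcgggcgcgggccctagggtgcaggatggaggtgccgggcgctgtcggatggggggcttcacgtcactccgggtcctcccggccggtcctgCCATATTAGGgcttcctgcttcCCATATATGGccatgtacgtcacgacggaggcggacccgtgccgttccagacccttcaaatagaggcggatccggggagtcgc
The second pair show GC3, the share of codons whose last base is G or C, as the 30 codons at the middle of the GENCODE v29 coding sequence of GCFC2 on chromosome 2 (codons 376 to 405) and of SOX15 on chromosome 17 (codons 102 to 131). Capitals mark the last base of each codon. Over the whole coding sequence, GC3 was 35.7% in GCFC2, which was lower in ZC3H7B-OE, and 81.1% in SOX15, which was higher. The pair was chosen to show low and high GC3, and other genes named below run the other way: GJA3, ARL10 and EGR1, lower in ZC3H7B-OE, had 90.3%, 85.3% and 77.5%, and MARK1 and ZNF530, higher in ZC3H7B-OE, had 39.2% and 42.9%.
GCFC2: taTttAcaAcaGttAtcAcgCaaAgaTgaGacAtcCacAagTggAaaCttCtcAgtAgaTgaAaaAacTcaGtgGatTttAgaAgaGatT
SOX15: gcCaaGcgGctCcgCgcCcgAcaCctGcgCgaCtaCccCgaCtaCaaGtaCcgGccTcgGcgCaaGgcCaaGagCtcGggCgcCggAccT

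The 6 libraries held similar numbers of reads: 1675707, 1797195 and 1814417 in ZC3H7B-OE, against 1952964, 1866132 and 1733739 in control. Between 12125 and 12785 entries had a read in each of them. Replicates of a group differed by more than counting noise in all 6 pairs, so no library was a copy of another. Of 18 listed marker genes of HEK293 cells, 12 were tested, and 2 passed as lower in ZC3H7B-OE, against 7.27% of all genes. Marker lists of leukocytes, epithelium, fibroblasts and endothelium had 4, 3, 3 and 2 members tested and none passed by edgeR, with 1 of these 12 at an unadjusted p under 0.05, a fibroblast marker. Summed over its list, the leukocyte markers made up 111 to 135 CPM in ZC3H7B-OE and 80.5 to 103 CPM in control, of which CD68, a lysosomal protein, was the most abundant (adjusted p = 0.288; 0.0186 without control 0 h replicate 3). PTPRC, the pan-leukocyte surface antigen, had 0 reads in both lines, as did 7 further markers of the 18 on this list. The part of other cells in the results was not tested.

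The targeted gene did not pass the test in total reads at 2 h. ZC3H7B had 290.4, 357 and 324 CPM (reads relative to the TMM-scaled library size) in the 3 ZC3H7B-OE libraries, against 374, 376 and 283 CPM in the 3 control libraries. The ranges overlap, and the log2 difference, ZC3H7B-OE minus control, was -0.09 (SE 0.16, edgeR adjusted p = 0.806). It did not pass under any of 16 alternative settings. At 0, 4 and 6 h of chase the log2 difference was 0.56 (adjusted p = 0.00695), 0.35 (adjusted p = 0.126) and 0.32 (adjusted p = 0.169). Total reads thus showed no excess of ZC3H7B in ZC3H7B-OE at 2 h. The tables do not separate reads of a construct from those of the chromosomal gene. Whether construct reads are counted at all is not given, and the line is called ZC3H7B-OE by its label. ZC3H7A had 51.1, 43.4 and 53.4 CPM in ZC3H7B-OE and 53.5, 45.8 and 60.8 CPM in control, a log2 difference of -0.11 (SE 0.19, adjusted p = 0.792).

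ZC3H7B differed clearly in its labelled reads, those counted in the deposited table of reads with T>C conversions, the mark that s4U leaves in RNA made during the pulse. They made up 61.3%, 61.9% and 55.4% of ZC3H7B reads in ZC3H7B-OE, against 77.9%, 76.9% and 76.8% in control. Every ZC3H7B-OE library lay below every control library. The log2 difference in the odds of a labelled read was -1.21 (SE 0.18, edgeR adjusted p = 5.18e-07). Over all genes the labelled share was 72.4%, 72.2% and 70.8% in ZC3H7B-OE libraries and 77.2%, 76.2% and 73.7% in control libraries. Taken relative to each library's own labelled and unlabelled totals, the log2 difference in odds of ZC3H7B was -0.94 (adjusted p = 2.09e-05).

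Of 10038 genes tested at 2 h, 950 passed (9.46%): 730 were lower in ZC3H7B-OE (7.27% of those tested) and 220 higher (2.19%). At 1.5-fold or more, 598 were lower (5.96%) and 155 higher (1.54%). At 2-fold or more, 255 were lower (2.54%) and 41 higher (0.408%). The median log2 difference over all genes tested was 0.02. The groups did not overlap for 918 of the 950. Among all genes tested, groups did not overlap for 1573 lower (15.7%) and 1205 higher (12.0%). In bulk RNA, fewer cells of a kind and less RNA per cell cannot be told apart. Without the control 0 h library of replicate 3, which stands apart from its group, 1103 genes were lower (10.5%) and 567 higher (5.39%), and all 950 kept their call. In the 6 libraries of 2 h alone, 866 were lower (10.2%) and 399 higher (4.68%). Without ZC3H7B-OE replicate 2, 575 genes passed, and without control replicate 1, 585.

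**Figure D1:**
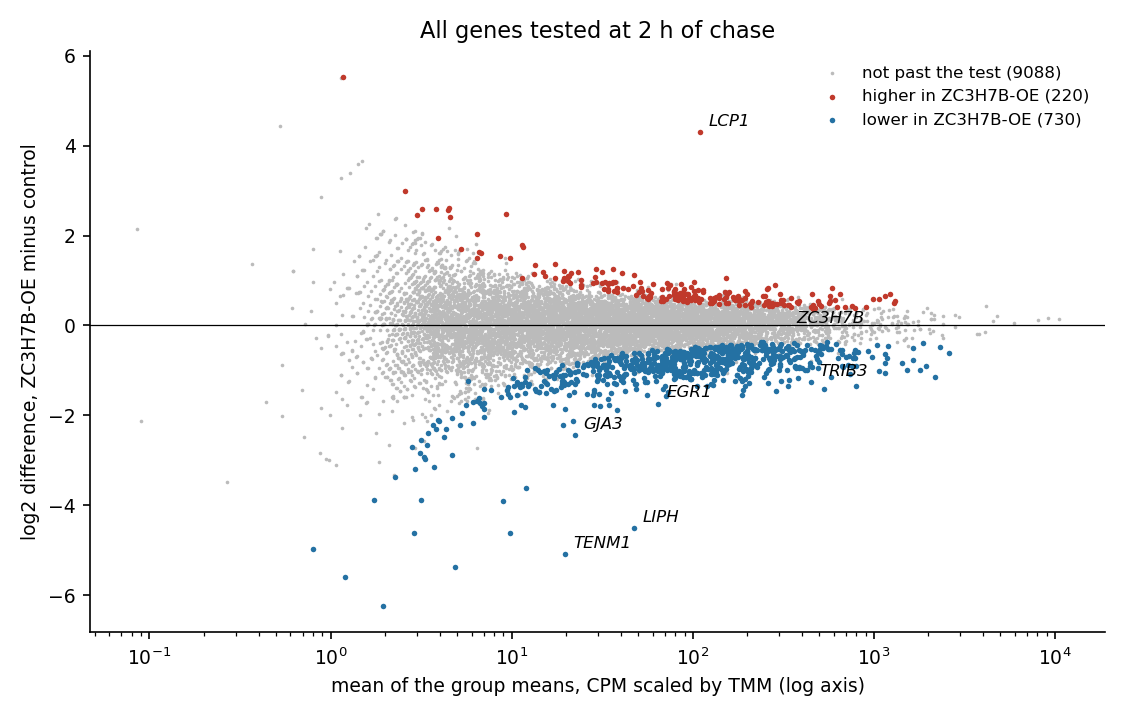
Each point is 1 of the 10038 genes tested at 2 h, with the mean of the 2 group means in CPM scaled by TMM (log axis) against the fitted log2 difference, ZC3H7B-OE minus control. The 220 genes higher and 730 genes lower in ZC3H7B-OE are coloured; LCP1 is labelled at 4.30, LIPH and TENM1 at -4.50 and -5.09, and ZC3H7B lies at -0.09.

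LCP1, which encodes the actin-bundling protein L-plastin of blood cells, stood far above the other 11 of the 12 highest genes named by the rule given under processing. It had 207, 219 and 199.9 CPM in ZC3H7B-OE, against 12.2, 11.8 and 7.53 CPM in control, 19.7-fold higher (log2 4.30, SE 0.26, edgeR adjusted p = 2.73e-13). The groups lie far apart, and the log2 difference was 4.28, 4.04 and 4.87 at 0, 4 and 6 h. Those 11 differed by between 2.09-fold and 2.56-fold. PPP1R3B, a subunit that targets protein phosphatase 1 to glycogen, had 49.9, 43.4 and 60.5 CPM in ZC3H7B-OE and 18.3, 28.0 and 17.8 CPM in control (log2 1.26, SE 0.23, adjusted p = 0.000218). SYDE1, a GTPase-activating protein, had 62.6, 47.1 and 60.0 CPM in ZC3H7B-OE and 19.4, 33.4 and 22.6 CPM in control (log2 1.17, SE 0.23, adjusted p = 0.000625). Neither gene's groups overlap.

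The other highest genes were ZNF530 (a zinc finger gene, log2 1.36), MAD2L1BP (which silences the spindle checkpoint, 1.25), MASP2 (a protease of the complement lectin pathway, 1.22), B9D2 (of the ciliary transition zone, 1.17), DKFZP761J1410 (1.13), MARK1 (a microtubule affinity-regulating kinase, 1.10), SOX15 (a transcription factor, 1.09), ATP6AP1 (an accessory subunit of the vacuolar proton pump, 1.09) and C21orf33 (1.06). MAD2L1BP and DKFZP761J1410 stayed past the threshold with each 2 h library left out. ZNF530, B9D2, ATP6AP1 and MASP2 lost the call without control replicate 1 (adjusted p = 0.109, 0.0703, 0.213 and 0.209), as did C21orf33 (0.0803). Without control replicate 2, MARK1, SOX15, MASP2 and C21orf33 lost it (0.0653, 0.0884, 0.185 and 0.175). Leaving out ZC3H7B-OE replicate 1 took it from SOX15, ATP6AP1, MASP2 and C21orf33 (0.0868, 0.122, 0.0688 and 0.0930). Leaving out ZC3H7B-OE replicate 2 took it from ZNF530, B9D2, ATP6AP1 and C21orf33 (0.0562, 0.0537, 0.0709 and 0.111), and replicate 3 from MARK1, ATP6AP1 and MASP2 (0.0739, 0.0617 and 0.290). SOX15 had 0 labelled among 228 reads in the 6 libraries, which allows a labelled share of up to 1.32%, and MASP2 averaged 7.05% ± 1.70 labelled in ZC3H7B-OE and 0.98% ± 1.70 in control (SD, n = 3 each). Entries with under 10% labelled reads made up 4.15% of those tested, 3.18% of the higher calls and 2.88% of the lower.

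Among the genes lower in ZC3H7B-OE, TENM1 and LIPH were nearly lost. TENM1, a teneurin of the X chromosome that acts in cell adhesion, had 0, 1 and 5 reads in ZC3H7B-OE and 69, 76 and 72 reads in control. The ratio of summed reads per library size, control over ZC3H7B-OE, was 35.5, with a 95% counting interval of 16.1 to 97.8 (adjusted p = 2.55e-07). LIPH, a phosphatidic acid-selective lipase, had 2.30, 7.49 and 2.03 CPM in ZC3H7B-OE and 91.7, 103 and 77.5 CPM in control (log2 -4.50, SE 0.33, adjusted p = 2.36e-11). LIPH was low at the other times too, with log2 differences of -3.81, -3.96 and -3.59 at 0, 4 and 6 h. The groups of both genes lie far apart.

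The remaining 10 of the 12 lowest genes lay between log2 -2.44 and -1.74, and each stayed past the threshold under all 16 alternatives. GJA3, a connexin, had 9.76, 8.57 and 2.54 CPM in ZC3H7B-OE and 29.1, 43.1 and 40.4 CPM in control. EIF4E3, a cap-binding protein of the eIF4E family, had 4.59, 9.64 and 6.10 CPM in ZC3H7B-OE and 28.5, 36.6 and 29.6 CPM in control. SLC44A1, a choline transporter, had 10.3, 18.2 and 19.8 CPM in ZC3H7B-OE and 61.7, 63.5 and 54.3 CPM in control. In each of the 3, the highest ZC3H7B-OE library lay below the lowest control library. BVES (a membrane protein of muscle and epithelium, log2 -2.12), GCFC2 (a spliceosome-associated factor, -1.87), ZDHHC20 (a palmitoyltransferase, -1.79), OGFRL1 (-1.78), ARL10 (a small GTPase of the ARF-like family, -1.76), ARSB (the lysosomal enzyme arylsulfatase B, -1.76) and EGR1 (-1.74) complete the set. GCFC2 had 0 labelled among 223 reads, which allows a labelled share of up to 1.35%.

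**Figure D2:**
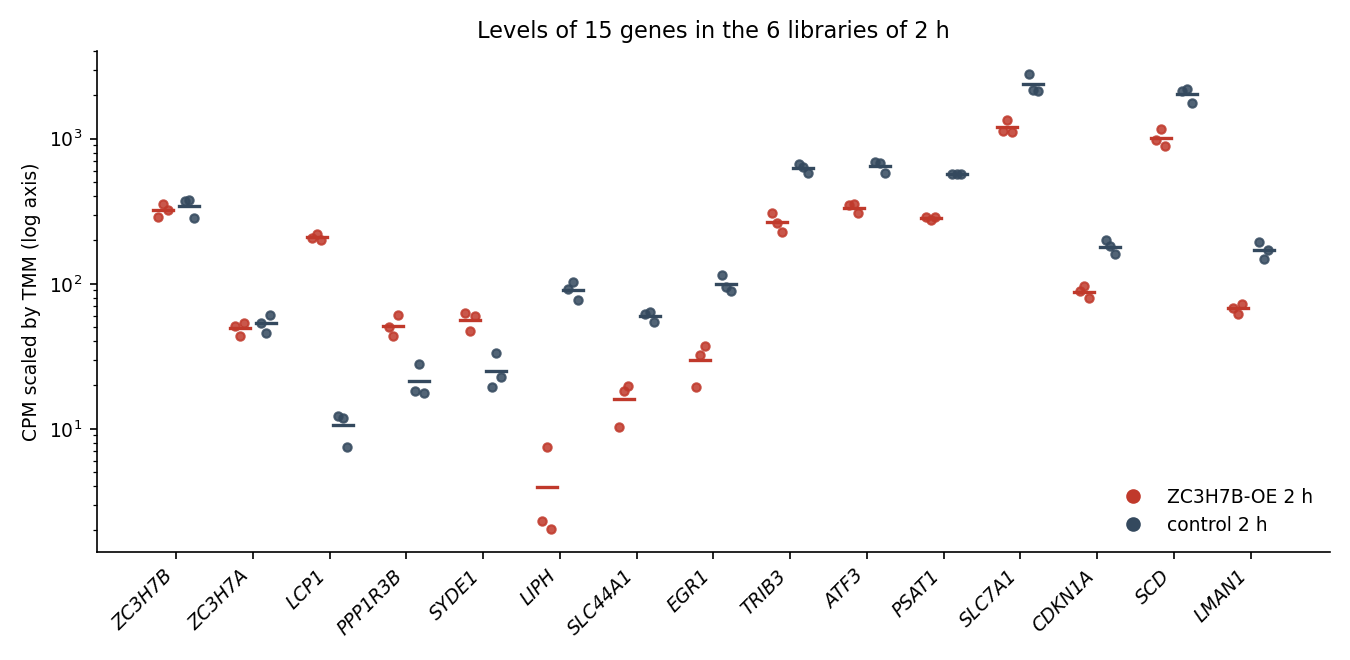
CPM scaled by TMM (log axis) of 15 genes in each 2 h library, ZC3H7B-OE (red, left) and control (dark, right), with a line at the group mean of 3 libraries. ZC3H7B and ZC3H7A overlap between the lines, LCP1, PPP1R3B and SYDE1 lie higher in ZC3H7B-OE, and the other 10 genes lie lower without overlap.

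Immediate early genes, which respond within minutes to growth factors and stress, held several of the lower genes. Of 36 tested, 11 passed as lower and 0 as higher, against 7.27% and 2.19% of all genes, and 33 of 36 lay below 0 (median log2 -0.32, against 0.02 over all genes). EGR1, a zinc finger transcription factor, had 19.5, 32.1 and 37.1 CPM in ZC3H7B-OE and 114, 95.3 and 88.8 CPM in control (log2 -1.74, SE 0.22, adjusted p = 1.65e-06). All ZC3H7B-OE libraries were below all control libraries. KLF10, a transcription factor induced by TGF-beta, differed by log2 -1.35 (SE 0.22, adjusted p = 5.18e-05), and JUN, an AP-1 subunit, had 371, 391 and 351 CPM in ZC3H7B-OE and 581, 623 and 574 CPM in control (log2 -0.68, SE 0.12, adjusted p = 0.000253). The list's summed level was 3320 to 3735 CPM in ZC3H7B-OE and 4458 to 4775 CPM in control. CArG boxes lay in the promoter windows of 2 of the 26 tested members with a window (7.69%, against 1.44% of 27305 genes, tested or not). These were EGR1, whose boxes are printed above, and SRF, which did not pass (log2 0.22, adjusted p = 0.482). ERK feedback genes, of which 2 of 18 passed as lower (DUSP8 and DUSP4), had a median of -0.13. Without control 0 h replicate 3, 5 were lower, against 10.5% of all genes. DUSP8 lost the call without ZC3H7B-OE replicate 2 or 3 or control replicate 1 (adjusted p = 0.0668, 0.0741 and 0.0779), and DUSP4 without any 1 of the libraries but control replicate 3 (0.0741 to 0.255).

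Stress regulators of the ATF4 pathway also held lower genes and none that passed as higher. Of 17 tested, 6 passed as lower and 0 as higher, against 7.27% and 2.19% of all genes. Of the 17, 15 lay below 0, and the median was -0.31, against 0.02 over all genes. TRIB3, a pseudokinase that holds back ATF4, had 307, 261 and 227 CPM in ZC3H7B-OE and 672, 642 and 581 CPM in control (log2 -1.25, SE 0.14, adjusted p = 2.3e-07). ATF3, a transcription factor of the stress response, had 347, 354 and 305 CPM in ZC3H7B-OE and 695, 677 and 578 CPM in control (log2 -0.96, SE 0.15, adjusted p = 2.83e-05). In both genes the lowest control library lay far above the highest ZC3H7B-OE library. ATF3 is also on the list of immediate early genes and is counted as lower there too. CEBPG, a partner of ATF4, had 2188, 1787 and 1829 CPM in ZC3H7B-OE and 2773, 2710.0 and 2559.8 CPM in control (log2 -0.47, SE 0.11, adjusted p = 0.00533). EIF2AK2, the kinase PKR, differed by log2 -0.76 (adjusted p = 0.00432; 0.052 without ZC3H7B-OE replicate 1). The element printed for CEBPG lay in the windows of 4 of 15 of these tested genes (26.7%, against 3.87% of 27305 genes, tested or not). Of the 4, ATF3 and CEBPG passed as lower, and PPP1R15B (log2 0.20, adjusted p = 0.434) and CHAC1 (-0.22, adjusted p = 0.614) did not pass.

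Genes of amino acid supply included lower ones, against 7.27% lower and 2.19% higher over all genes. Without control 0 h replicate 3, these shares over all genes were 10.5% and 5.39%. Of 18 transporters tested, 6 passed as lower and 1 as higher (median -0.35), and of 16 enzymes of amino acid synthesis, 2 passed as lower and 0 as higher (median -0.17), with 5 lower when control 0 h replicate 3 was left out. SLC7A1, the main importer of arginine and lysine, had 1133, 1353 and 1108 CPM in ZC3H7B-OE and 2815, 2177 and 2141 CPM in control (log2 -0.99, SE 0.15, adjusted p = 2.08e-05). SLC6A15, a carrier of neutral amino acids, had 27.6, 29.98 and 26.5 CPM in ZC3H7B-OE and 64.7, 62.5 and 68.3 CPM in control (log2 -1.22, SE 0.18, adjusted p = 2.16e-05). SLC36A4 and SLC1A4, carriers of neutral amino acids, differed by log2 -0.88 and -0.73. PSAT1, which makes phosphoserine in serine synthesis, had 290.4, 275 and 289 CPM in ZC3H7B-OE and 572, 571 and 568 CPM in control (log2 -1.001, SE 0.18, adjusted p = 0.00044). MTHFD2, of mitochondrial folate metabolism, differed by log2 -0.98 (adjusted p = 0.00669). No library of one line reached the range of the other in these 6 genes. ASNS, the asparagine synthetase with an element in its window, had a log2 difference of -0.58 and did not pass (adjusted p = 0.228). Among 18 aminoacyl-tRNA synthetases, which charge tRNAs for translation, YARS was higher (log2 0.49, adjusted p = 0.00651) and NARS lower (-0.57, adjusted p = 0.0172), with a list median of -0.20; without control 0 h replicate 3, 3 were lower and 1 higher. NARS lost the call without ZC3H7B-OE replicate 2 or 3 or control replicate 1 or 2 (adjusted p = 0.0703, 0.129, 0.080 and 0.0778). The element printed for CEBPG lay in 2 of 10 windows of tested synthesis genes (20%), against 3.87% of 27305 genes, tested or not. It lay in 1 of 15 of transporters (6.67%) and 2 of 15 of synthetases (13.3%). Beside ASNS, these were GOT1, SLC1A5, AARS and IARS, which did not pass by edgeR (adjusted p = 0.216, 0.517, 0.160 and 0.400).

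p53 targets, which act in cell cycle arrest and DNA repair, had 6 of 21 tested as lower and 0 as higher, with a median of -0.41. Over all genes, 7.27% were lower and 2.19% higher, and the median was 0.02. CDKN1A, the cyclin-dependent kinase inhibitor p21, had 89.5, 96.4 and 79.4 CPM in ZC3H7B-OE and 201, 181 and 159 CPM in control (log2 -1.03, SE 0.17, adjusted p = 7.61e-05). GADD45A, a growth arrest gene, differed by log2 -1.09 (adjusted p = 1.39e-05), RRM2B, the p53-inducible ribonucleotide reductase subunit, by -1.17 (adjusted p = 0.000191) and CCNG1, cyclin G1, by -1.02 (adjusted p = 0.00324). Of 20 genes of the YAP and TEAD pathway, which relays cell contact to growth, 5 were lower and 1 higher (median -0.36). WWTR1, the coactivator TAZ, had 55.7, 66.9 and 63.6 CPM in ZC3H7B-OE and 121, 118 and 116 CPM in control (log2 -0.93, SE 0.17, adjusted p = 0.000302), and AJUBA and MOB1A differed by -0.88 and -0.57. The higher member was AMOT, a scaffold that binds YAP, with 17.2, 25.7 and 10.2 CPM in ZC3H7B-OE and 5.61, 4.85 and 4.84 CPM in control (log2 1.78, adjusted p = 0.00384; 0.0596 without ZC3H7B-OE replicate 2). The log2 difference of AMOT was 2.11, 2.77 and 2.33 at 0, 4 and 6 h, and 4 other members, none of which passed, also lay above 0 at 2 h. Hypoxia targets had 3 of 14 lower (VEGFA, HK2 and DDIT4) and a median of -0.34, and each of the 3 lost the call when control replicate 1 was left out (adjusted p = 0.123, 0.166 and 0.132) and again without control replicate 2 (0.0778, 0.0699 and 0.0747) or ZC3H7B-OE replicate 2 (0.119, 0.0982 and 0.0829). HK2 and DDIT4 also lost it without ZC3H7B-OE replicate 3 (0.101 and 0.0998), and HK2 without replicate 1 (0.0544).

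Lists of the secretory route, lipid synthesis and DNA replication held strong single differences beside medians near that of all genes. Over all genes, 7.27% were lower and 2.19% higher, or 10.5% and 5.39% without control 0 h replicate 3. Of 27 genes of COPII coats and cargo receptors, 7 were lower and 0 higher, with a median of -0.01. Without control 0 h replicate 3 these were 10 and 2. LMAN1, a receptor that carries clotting factors out of the endoplasmic reticulum, had 68.3, 62.1 and 72.2 CPM in ZC3H7B-OE and 193, 148 and 172 CPM in control (log2 -1.34, SE 0.16, adjusted p = 3.96e-07). Its partner MCFD2 differed by -0.94 (adjusted p = 1.85e-05), TMED5 by -0.94 and SAR1A by -0.63. Of 26 genes of cholesterol and fatty acid synthesis, 5 were lower and 1 higher (median -0.12). SCD, the desaturase that makes oleate, had 984, 1166 and 896 CPM in ZC3H7B-OE and 2139, 2189 and 1753 CPM in control (log2 -0.997, SE 0.12, adjusted p = 4.24e-07), and SC5D, CYP51A1 and HMGCS1 differed by -1.42, -0.77 and -0.81. Of 43 DNA replication genes, 5 were lower and 0 higher (median 0.04), and without control 0 h replicate 3 these were 8 and 5. RRM2, the S-phase subunit of ribonucleotide reductase, had 106, 94.2 and 89.0 CPM in ZC3H7B-OE and 196, 186 and 178 CPM in control (log2 -0.95, SE 0.17, adjusted p = 0.000164). The histone list had 3 of 23 lower, among them H2AFV and H1F0, variants outside the replication-dependent clusters, both at -1.07.

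Chaperones and translation genes were mixed. Their counts are to be read against 7.27% lower and 2.19% higher over all genes (10.5% and 5.39% without control 0 h replicate 3). Of 30 cytosolic chaperones, 6 were lower and 1 higher (median -0.06). HSPH1, of the HSP110 family, had 95.3, 80.8 and 106 CPM in ZC3H7B-OE and 180.4, 162 and 178 CPM in control (log2 -0.88, adjusted p = 6.12e-05), ST13 and DNAJA1 differed by -0.85 and -0.76, and the cochaperone BAG5 by 0.67 (adjusted p = 0.00107). Of 41 translation factors, 4 were lower and 0 higher (median -0.03), and without control 0 h replicate 3 these were 5 and 4. EIF4EBP2, which holds back the cap-binding protein eIF4E, had 296, 311 and 320.0 CPM in ZC3H7B-OE and 630.4, 531 and 582 CPM in control (log2 -0.91, SE 0.12, adjusted p = 2.62e-06), and DENR, EIF1AX and EIF4G2 differed by -0.85, -0.81 and -0.52. Of 69 cytosolic ribosomal proteins, 3 were higher and 0 lower. Their median was 0.20 at 2 h, against -0.65 at 0 h, 0.49 at 4 h and 0.03 at 6 h. The 0 h value includes control 0 h replicate 3, which stands apart, and no member is among the 7 genes that passed the edgeR test of 2 h against the other times, given below. Without that library 5 members were higher and 2 lower at 2 h. RPL37 and RPL13A, proteins of the large subunit, passed as higher and lost the call when control replicate 1 was left out (adjusted p = 0.0674 and 0.0513). RPL37 also lost it without control replicate 2 or ZC3H7B-OE replicate 3 (0.0778 and 0.0806), and RPL13A without control replicate 3 or ZC3H7B-OE replicate 1 (0.0702 and 0.0892).

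Genes of mRNA decay passed in both directions, to be read against 7.27% lower and 2.19% higher over all genes. Without control 0 h replicate 3, these shares were 10.5% and 5.39%. Of 15 genes of the CCR4-NOT complex and deadenylation, which shorten poly(A) tails, none passed by edgeR and 1 had an unadjusted p under 0.05, with 1 lower without control 0 h replicate 3. TOB2, the most abundant, had a log2 difference of 0.11 (adjusted p = 0.662). Of 20 genes of decapping and translational repression, 2 were higher and 2 lower, and without control 0 h replicate 3 these were 5 and 3. LSM7, of the LSM ring on the mRNA 3' end, had 221, 195 and 191 CPM in ZC3H7B-OE and 134, 116 and 141 CPM in control (log2 0.64, adjusted p = 0.0161), and DDX6, a helicase of translational repression, had 234, 311 and 272 CPM in ZC3H7B-OE and 413, 348 and 398 CPM in control (log2 -0.50, adjusted p = 0.0176). Without ZC3H7B-OE replicate 1, neither passed (adjusted p = 0.0930 and 0.115), nor did LSM7 without control replicate 2 (0.0969) or DDX6 without control replicate 1 (0.111). Of 18 genes of nonsense-mediated decay and termination, 3 were lower: RBM8A of the exon junction complex, and the release factors GSPT1 and ETF1, at log2 -0.57, -0.57 and -0.54. Of 35 other CCCH zinc finger genes tested, the splicing regulator MBNL3 was lower (log2 -1.19, adjusted p = 3.67e-05) and none higher. Among 26 enzymes that modify tRNA, 3 were lower and 2 higher, and without control 0 h replicate 3 these were 3 and 4. The wobble uridine methyltransferase ALKBH8 differed by -0.75 (adjusted p = 0.00114) and TYW3, which helps make wybutosine beside the anticodon of phenylalanine tRNA, had 176, 174 and 184 CPM in ZC3H7B-OE and 382, 348 and 313 CPM in control (log2 -0.97, adjusted p = 2.26e-05).

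**Figure D3:**
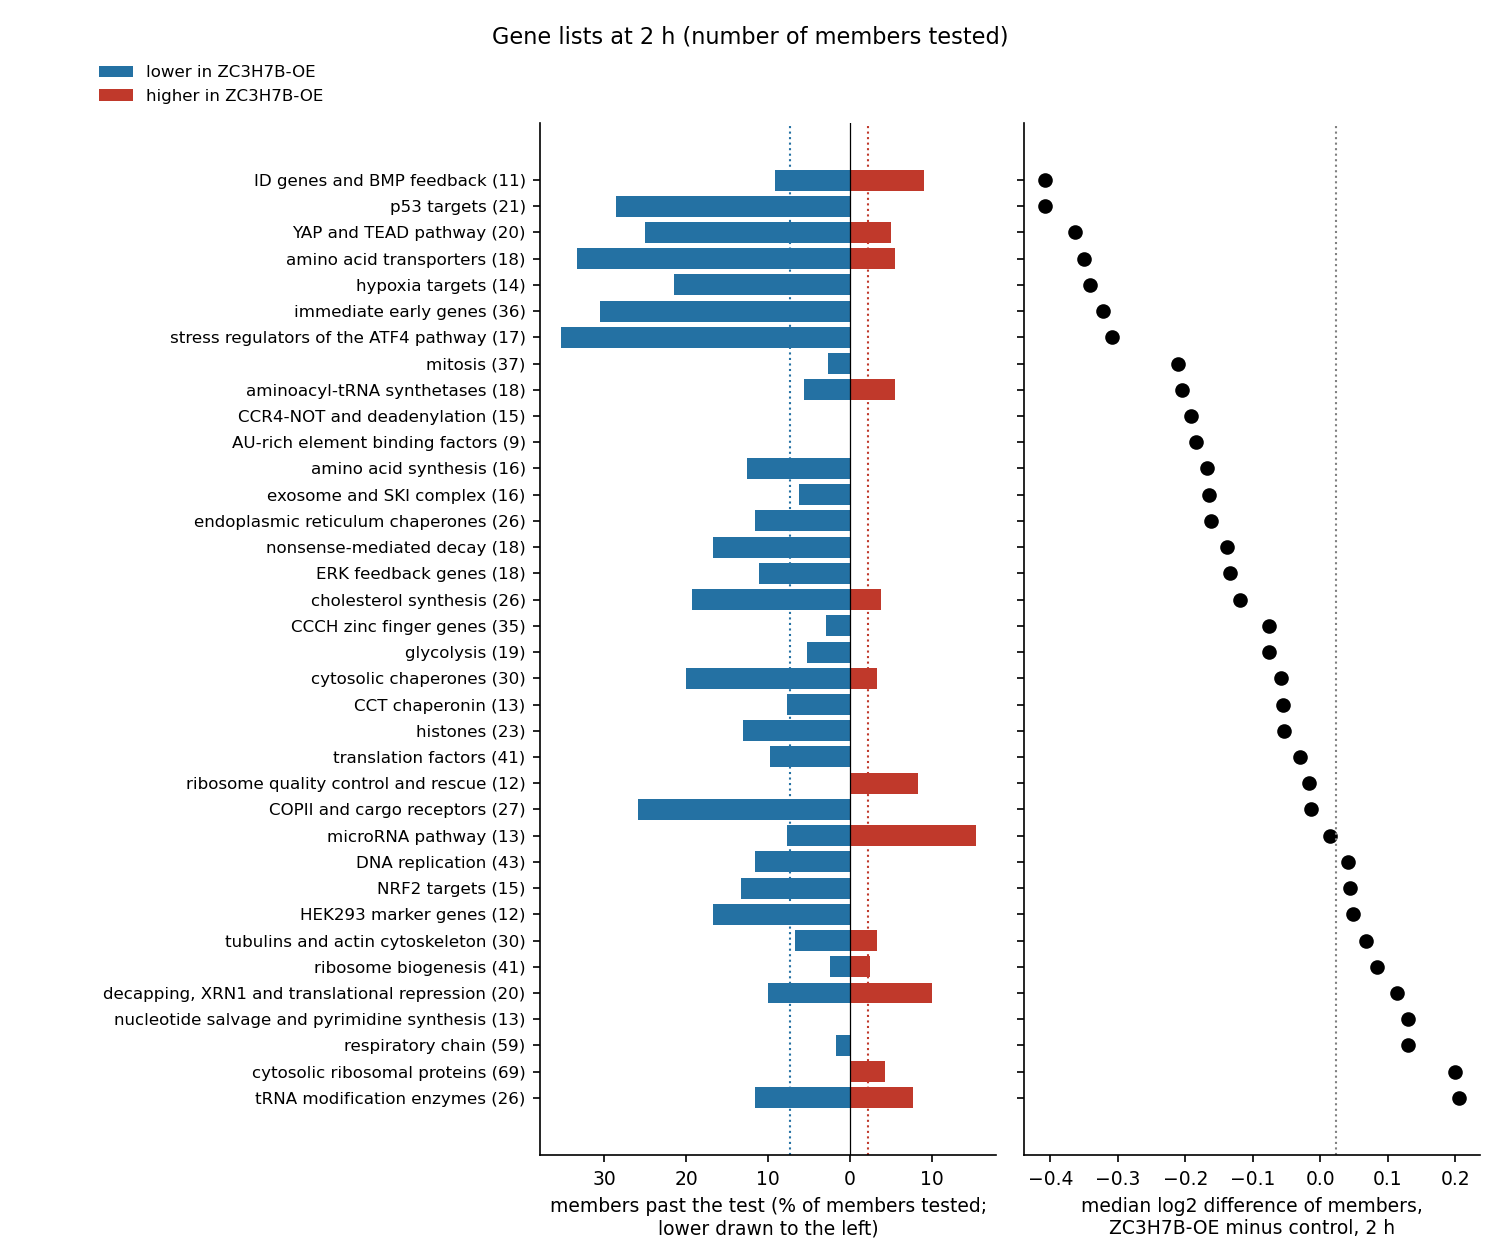
For each gene list with at least 9 members tested (number in brackets), the left panel shows the share of members past the test, lower to the left and higher to the right, with dotted lines at 7.27% and 2.19% over all genes. The right panel shows the median log2 difference, ZC3H7B-OE minus control, with a dotted line at 0.02 for all genes. Lower were 6 of the 17 stress regulators, 11 of the 36 immediate early genes and 6 of the 21 p53 targets. ATF3 counts both as a stress regulator and as an immediate early gene.

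Most of the differences at 2 h had the same sign at the other times. Of the 950, 898, 918 and 901 had it at 0, 4 and 6 h, and 683 lower and 166 higher genes had it at all times. Each time has its own 6 libraries, but 1 fit gives the spread for all. At every time 346 lower and 73 higher genes passed, while 72 lower and 59 higher genes passed at 2 h alone. Passing at 2 h alone does not show a difference between times, which was tested separately as the 2 h difference minus the mean of those at 0, 4 and 6 h. Of 10038 genes, 7 passed this test, all with the 2 h difference above the others (0.0697%), and 0 below; at an unadjusted p under 0.05 there were 640 above and 464 below. NUDT12, a peroxisomal nucleotide hydrolase, had a log2 difference of 0.19 at 2 h, with 27.0, 20.3 and 22.9 CPM in ZC3H7B-OE and 17.3, 21.5 and 22.6 CPM in control, against -2.35, -1.14 and -1.54 at 0, 4 and 6 h. TTC33 had 0.75 at 2 h, against -1.77, -0.12 and -0.57. ACAP2, HSPA13 and GAS1 had 0.43, 0.48 and 0.41 at 2 h. The count was 28, 49 and 163 (1.55%) without ZC3H7B-OE replicate 2, control replicate 3 and control 0 h replicate 3, the last with 128 above (1.22%) and 35 below (0.333%), and 4, 1, 3 and 2 without ZC3H7B-OE replicates 1 and 3 and control replicates 1 and 2.

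Labelled reads at 2 h were a smaller share of the reads in ZC3H7B-OE. At 0 h the share was 75.1%, 74.9% and 74.3% in ZC3H7B-OE libraries and 78.0%, 77.4% and 74.8% in control libraries. Whether labelled odds of single genes already differed at 0 h was not tested. Of 9895 genes tested for the odds that a read was labelled, 517 passed (5.22%): 509 had lower odds in ZC3H7B-OE (5.14%) and 8 higher (0.0808%). The median log2 difference in odds over all genes was -0.29, which includes the lower labelled share of the ZC3H7B-OE libraries as wholes. Relative to each library's own totals the median was -0.04, with 148 genes lower and 19 higher. Genes with lower total reads in ZC3H7B-OE had a median of -0.69, and 208 of 724 passed with lower odds; genes with higher total reads had a median of -0.19, and 5 of 220 passed. Total and labelled reads come from the same libraries, so these counts describe 1 set of reads. Leaving out ZC3H7B-OE replicate 3 or control replicate 1, 2 or 3 gave 258, 268, 301 and 960 calls in place of 517, and the 6 libraries of 2 h alone gave 153.

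Genes with lower odds included several named above. EIF4EBP2 was 86.0%, 87.3% and 82.4% labelled in ZC3H7B-OE and 93.3%, 93.6% and 92.0% in control (adjusted p = 1.3e-06). TYW3 was 80.4%, 82.5% and 74.8% labelled in ZC3H7B-OE and 93.2%, 90.4% and 88.5% in control (adjusted p = 2.4e-06). MOB1A was 72.3%, 73.1% and 64.3% labelled in ZC3H7B-OE and 85.6%, 89.1% and 76.9% in control (adjusted p = 1.6e-06). No ZC3H7B-OE library reached a control library in any of the 3. Lower still relative to control were STARD4, a sterol carrier, at 75.0%, 78.0% and 79.4% in ZC3H7B-OE and 98.6%, 95.7% and 97.9% in control, and ELOVL2, a fatty acid elongase, at 75.0%, 62.8% and 70.0% in ZC3H7B-OE and 98.9%, 97.4% and 88.2% in control. C3orf17 went the other way, at 59.9%, 65.0% and 55.4% in ZC3H7B-OE and 45.1%, 47.9% and 45.02% in control (adjusted p = 0.0024; 0.0514 in the 6 libraries of 2 h alone). LCP1, TRIB3 and EGR1, which differed in total reads, did not pass for labelled odds (adjusted p = 1.00, 0.48 and 0.61).

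**Figure D4:**
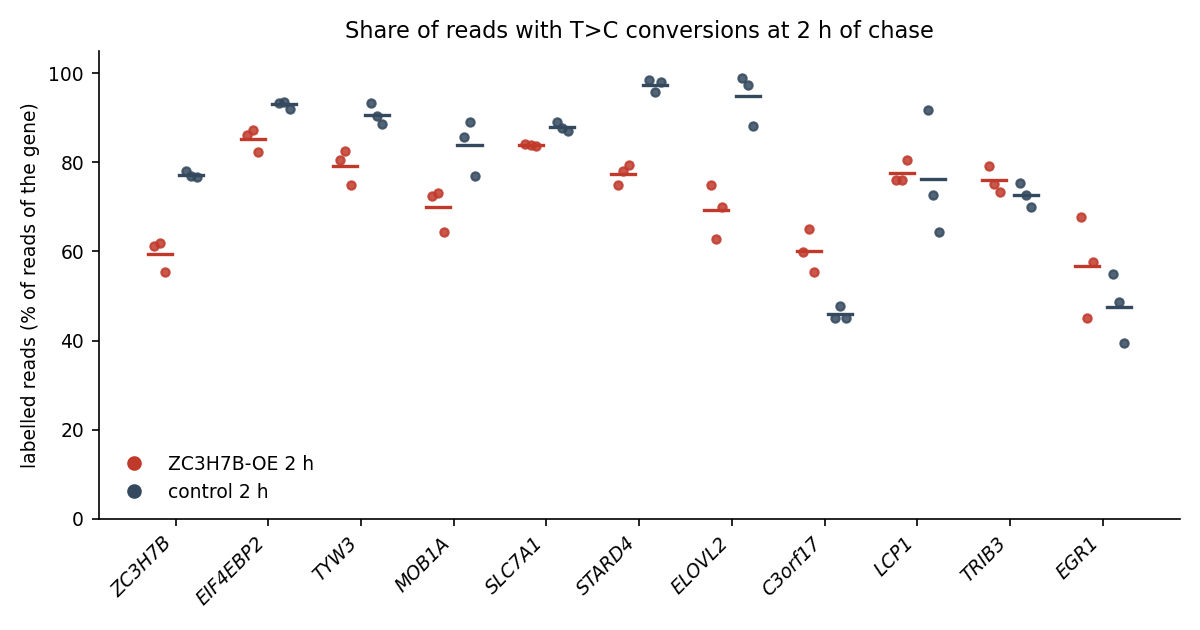
Labelled reads as a percentage of a gene's reads in each 2 h library, ZC3H7B-OE (red, left) and control (dark, right), with a line at the mean of 3. ZC3H7B sits at 55.4% to 61.9% in ZC3H7B-OE and at 76.8% to 77.9% in control, and C3orf17 alone among the 11 genes lies clearly higher in ZC3H7B-OE.

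Differences varied with GC3. Genes were divided into 5 equal bins by GC3 from GENCODE v29 coding sequences, which 96.9% of tested single-gene entries had. The median log2 difference was -0.23 in the lowest bin (22.3% to 41.7%) and 0.14 in the highest (76.7% to 100%), with 13.4% of genes lower in the lowest bin and 2.39% in the highest. Median levels were alike, at 28.5 and 24.9 CPM. Across 9430 genes, 29 of 30 codons ending in A or T had a negative rank correlation with the log2 difference and 29 of 31 ending in G or C a positive one, from -0.25 to 0.22; codon shares of a gene depend on each other and on base composition. At 0 h the medians of these bins were -0.77 and 0.39.

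The libraries of 1 line also differed among themselves in this respect. The median log2 deviation of the highest GC3 bin minus that of the lowest was 0.27, 0.29 and 0.002 in ZC3H7B-OE and -0.13, -0.12 and -0.32 in control. In both lines replicate 3 stood toward A and T, and the gap from ZC3H7B-OE replicate 3 to the nearest control library was smaller than its gap to the other ZC3H7B-OE libraries. Weighted by reads, GC3 was 61.8%, 61.8% and 60.7% in ZC3H7B-OE and 60.0%, 60.0% and 59.1% in control. The part of GC-dependent capture or amplification in this was not tested.

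Lower genes were also more frequent among those with long 3' UTRs. The median log2 difference was 0.12 in the bin with the shortest 3' UTRs (up to 369 bases) and -0.13 in the longest (2834 bases and over), and the share of lower genes was 1.96% and 16.4%. Median levels were 15.0 and 47.1 CPM, so that the test had more reads in the longest bin; its part in the shares of calls was not tested. Within the lowest GC3 bin, 5.46% of genes with the shortest and 19.8% with the longest 3' UTRs were lower, with medians of -0.23 and -0.26. Within the highest GC3 bin, 0.236% and 7.94% were lower, with medians of 0.20 and 0.06. By library, the median log2 deviation of the longest 3' UTR bin minus that of the shortest was -0.27, -0.13 and -0.05 in ZC3H7B-OE. In control it was 0.21, 0.02 and 0.16. ZC3H7B-OE replicate 3 thus lay nearer to control replicate 2 than to the other ZC3H7B-OE libraries.

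Calls were unevenly spread over chromosomes. On chromosome 21, 14 of 90 genes were higher (15.6%, against 2.19% of all) and 1 lower, with a median of 0.31. Its 87 genes with a GC3 value summed to 9324, 9421 and 8902 CPM in ZC3H7B-OE and 7392, 7358 and 7102 CPM in control, with no overlap. On chromosome 13, 32 of 182 genes were lower (17.6%, against 7.27% of all) and 4 higher, with a median of -0.32. Its 179 genes with a GC3 value summed to 12963, 12992 and 13276 CPM in ZC3H7B-OE and 17649, 17336 and 16729 CPM in control. LCP1, which was higher in ZC3H7B-OE, lies on chromosome 13. After the median of each gene's GC3 bin was subtracted, the medians were 0.30 for chromosome 21, 0.18 for 19, 0.14 for 20, -0.20 for 4 and -0.22 for 13. Medians of chromosome 21 were 0.24, 0.30 and 0.29 at 0, 4 and 6 h, and those of chromosome 4, where 44 of 322 genes were lower and 0 higher at 2 h, were -0.59, -0.26 and -0.25. Whether the lines differ in copy number of these chromosomes was not tested.

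**Figure D5:**
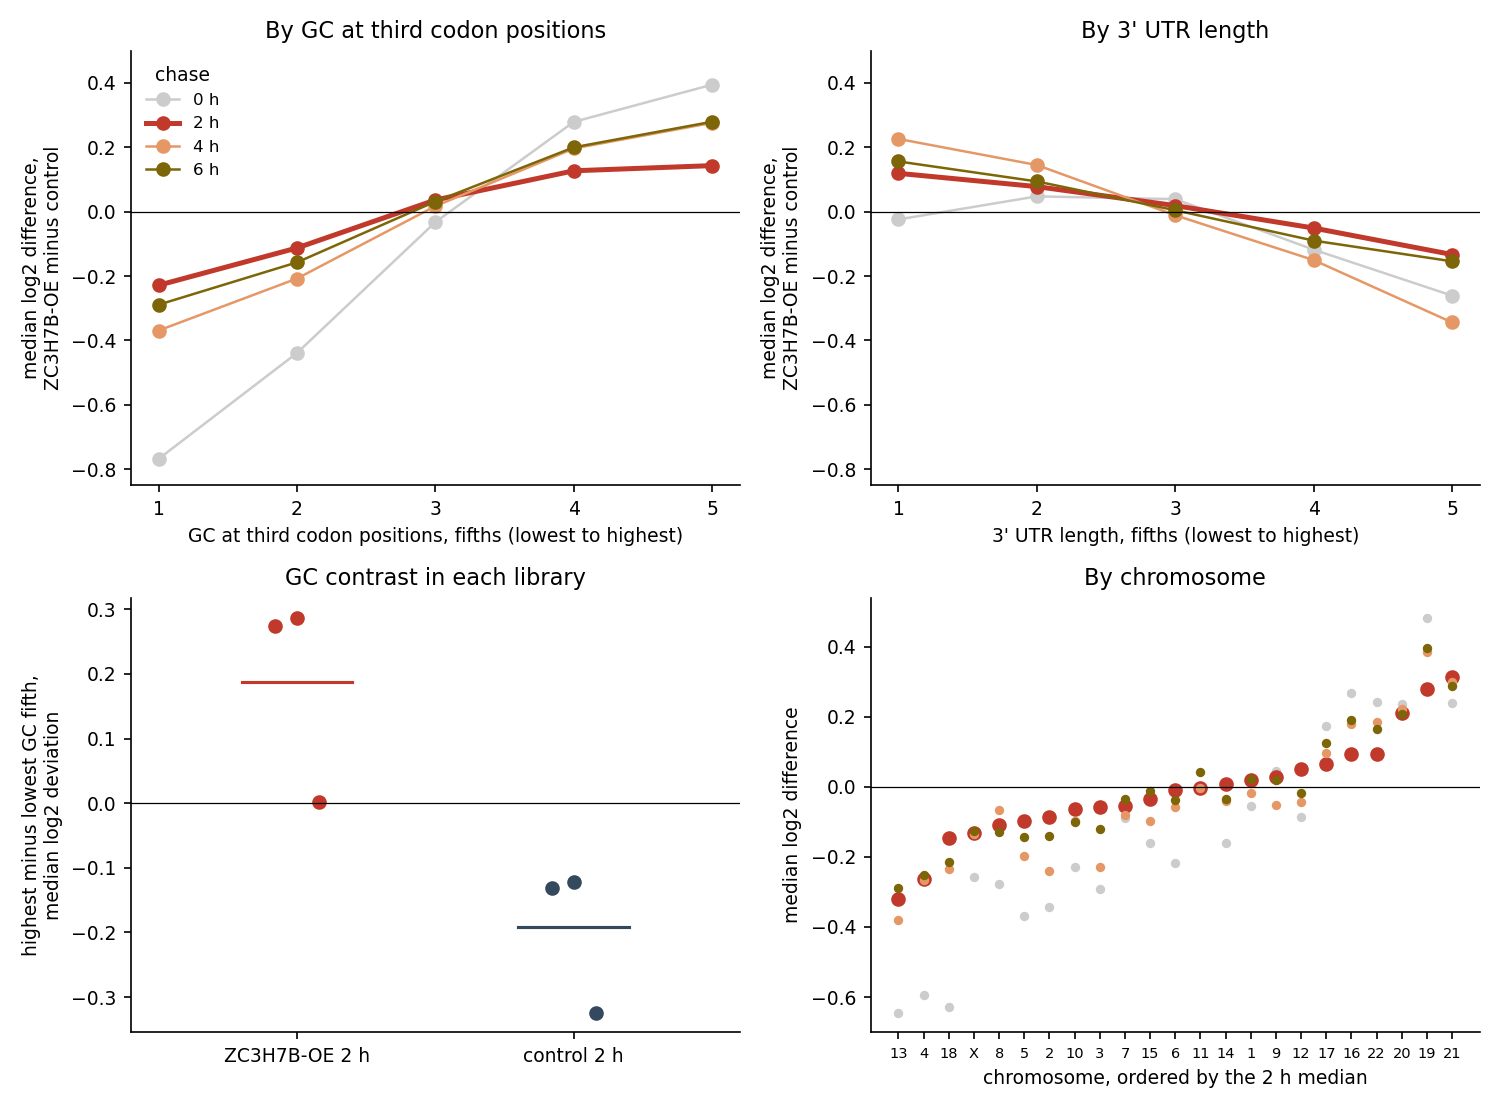
Upper panels show median log2 differences, ZC3H7B-OE minus control, by 5 bins of GC3 and of 3' UTR length at 4 chase times. Lower left shows the GC3 contrast of each 2 h library (points) with the mean of 3 (line), ZC3H7B-OE left of control, and lower right the median by chromosome in the same time colours; at 2 h it runs from -0.32 on chromosome 13 to 0.31 on 21.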

How the data were processed

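Poly(A) RNA of HEK293 cells was sequenced by catabolic SLAM-seq on a directional paired-end kit, per the labels. Read counts come from 2 tables the authors deposited for 24 libraries and 19692 entries, 1 of all reads and 1 of reads with T>C conversions. Reads were trimmed with fastp and the build was GRCh37, per the submitters' processing notes. Neither aligner, conversion threshold nor counting rule is given in the sources used here. Reads of overlapping genes, near-identical copies and 450 entries naming several genes are therefore uncertain. Depth was 1502068 to 3676254 reads per library. Reads carry no molecular identifiers, so intervals and the floor of 3 counts cover counting error only.

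From the deposited counts, edgeR 4.0.16 (R 4.3.3; filterByExpr with a minimum count of 10, TMM, robust quasi-likelihood) was fitted to all 24 libraries with a mean per group. The contrasts tested were: line at 2 h, that difference minus its mean at the other times, and the odds of a labelled read, with Benjamini-Hochberg adjustment over all genes at 0.05. Whether libraries of a group are separate cultures is not in the labels, and the p-values then reflect spread among these samples, which may be technical. Same-numbered libraries were not treated as pairs. Named genes are ZC3H7B and ZC3H7A; the 12 highest and 12 lowest single-gene entries that passed, averaged at least 16 CPM and did not overlap between groups; up to 4 members a list by adjusted p, or the most abundant member where none passed; and the 5 extremes of each other test. Genes with a promoter motif, GTF2A1 and ITCH were named after their values were seen. Some genes that the rule picks are not reported here. Members and lists were chosen with earlier results of these data known. GC and lengths come from GENCODE v29 (GRCh38), by gene identifier, and promoter windows were looked up by symbol. GC3 and 3' UTR bins are 5 of equal size. The procedure was tested on simulated data. Alternatives were limma-voom (limma 3.58.1), DESeq2 1.42.0, other scalings and filters, fewer libraries and a replicate block.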

Additional observations from a re-analysis of the deposited data

Results flagged for a closer look

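For 7 genes the difference between the lines at 2 h departed from the mean of those at 0, 4 and 6 h by the test of that difference, all upward. The 2 h difference minus that mean, on the log2 scale, was 1.87 for NUDT12, 1.57 for TTC33, 1.42 for ACAP2, 1.15 for HSPA13, 1.06 for GAS1, 1.01 for GTF2A1 and 0.86 for ITCH. GTF2A1, a subunit of the general transcription factor TFIIA, had log2 differences of -0.23 at 2 h and of -1.87, -0.95 and -0.89 at 0, 4 and 6 h. ITCH, a ubiquitin ligase, had 0.78 at 2 h and -0.47, 0.13 and 0.08 at 0, 4 and 6 h. NUDT12 passed with each 2 h library left out. Without ZC3H7B-OE replicate 3 the other 6 did not pass by edgeR (adjusted p = 0.0587 for TTC33 and GTF2A1, 0.162 for ACAP2, 0.116 for HSPA13, 0.153 for GAS1 and 0.0826 for ITCH). Without control replicate 2, TTC33, ACAP2, HSPA13, GAS1 and ITCH did not pass (0.0908, 0.160, 0.127, 0.120 and 0.0908). Control replicate 1 took the call from TTC33, HSPA13, GTF2A1 and ITCH when left out (0.0560, 0.0919, 0.0560 and 0.0769), and ZC3H7B-OE replicate 1 from TTC33, HSPA13 and GTF2A1 (0.0815, 0.124 and 0.0534). Control 0 h replicate 3, which stands apart from its group, enters the 0 h values given here. Refitted without that library, all 7 genes still passed by edgeR.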

How the results depend on the processing

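The 950 genes that passed at 2 h became 1670 without control 0 h replicate 3 and 575 to 845 with each 2 h library left out. The 7 that departed from the other times became 131 with the DESeq2 Wald test, 17 with DESeq2 size factors, 14 with library totals alone, 4 with limma-voom, 21 at a minimum count of 30, 115 with no filter, 163 without control 0 h replicate 3 and 1 to 49 with each 2 h library left out. The 517 differing in labelled odds became 167 relative to own totals, 153 in the 6 libraries of 2 h alone and 258 to 960 with each 2 h library left out. The cause was not tested. Deviations from the group mean correlated at 0.0633, 0.0489 and 0.3336 between same-numbered libraries of the 2 lines. Between libraries of other numbers they correlated at -0.2659 to 0.2215. Same-numbered libraries were not taken as pairs. With the replicate block, 791 genes passed at 2 h, of which 773 were among the 950, and 2 departed from the other times. Of 2111 values of 132 named genes under alternatives, 1920 kept direction and side of the threshold, 175 lost the call, 7 gained it and 9 reversed. By gene, 40 of the 132 lost the call under at least 1 alternative, and 32 lost it without control 2 h replicate 1. ARPC3 reversed to 0.0041 with the DESeq2 Wald test and DESeq2 size factors, 0.027 with library totals and 0.020 at a minimum count of 30. Leaving out 1 library moved ARPC3 between -0.071 and 0.024, FBLN1 between -0.53 and 0.26 and CLDN5 between -0.60 and 0.28, and none of the 3 passed. Depth limits the genes with few reads: 10038 of 19692 entries could be tested.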

Other observations

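Other gene groups held single differences that stayed past the threshold under all 16 alternatives. GSR, the reductase that regenerates glutathione, had 80.9, 95.8 and 68.7 CPM in ZC3H7B-OE and 162, 170.2 and 135 CPM in control (log2 -0.93, edgeR adjusted p = 0.000265), among 15 tested targets of NRF2 of which 2 were lower and 0 higher, against 7.27% and 2.19% of all genes. ATP5G3, a subunit of the ATP synthase ring, had 107, 78.2 and 75.8 CPM in ZC3H7B-OE and 164, 209 and 186 CPM in control (log2 -1.10, adjusted p = 0.00014). It was the 1 member of 59 in the respiratory chain list that passed. Without control 0 h replicate 3, 5 were lower and 1 higher, against 10.5% and 5.39% of all genes. LIN28B, an RNA-binding protein that blocks let-7 maturation, had 239.9, 206 and 208 CPM in ZC3H7B-OE and 345, 319.9 and 338 CPM in control (log2 -0.62, adjusted p = 0.00512). In all 3 genes every ZC3H7B-OE library lay below every control library.

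SMAD9, a signal carrier of BMP receptors, differed by log2 -0.65 (adjusted p = 0.0015), DDX21, a nucleolar helicase, by -0.55 (adjusted p = 0.000802), VCL, which links actin to adhesions, by -0.58 (adjusted p = 0.00374), and CCT6A, a subunit of the CCT chaperonin, by -0.84 (adjusted p = 6.91e-05). Their lists had 1 of 11, 1 of 41, 2 of 30 and 1 of 13 members lower, and 1, 1, 1 and 0 higher, counts to be read against 7.27% lower and 2.19% higher over all genes. Without control 0 h replicate 3, ribosome biogenesis, the list of DDX21, had 1 lower and 5 higher, and the CCT chaperonin 3 and 1. In that fit, 10.5% of all genes were lower and 5.39% higher. Among AU-rich element binding factors and enzymes of nucleotide salvage, 0 of 9 and 0 of 13 passed by edgeR, with 2 and 3 at an unadjusted p under 0.05. Without control 0 h replicate 3, 1 AU-rich element binding factor was lower and 1 higher, and 2 enzymes of nucleotide salvage were lower and 3 higher. ELAVL1, the most abundant of the AU-rich element binding factors, had a log2 difference of 0.12 (adjusted p = 0.581).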
